A study of Rattus norvegicus with 4 samples.

Results

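The 10 cytokine genes described here are the interleukin-1 agonists Il1a and Il1b, their antagonist Il1rn, the IL-1 family alarmin Il33, the IL-6 family cytokines Il6, Il11, Osm and Lif, tumour necrosis factor (Tnf), and the IL-10 family cytokine Il24. They were taken by gene symbol from the 30017 symbols of the deposited tables of unique molecular identifiers (UMIs), and all 10 symbols were found once. The rule used no measured value, but the 10 members were chosen with earlier results of these data known. The samples were single-cell libraries of the esophagus of male Sprague-Dawley rats, 6 weeks old, whose esophageal region was exposed to X-rays. One group received a single dose of 35 Gy and was taken at day 7 (single dose, day 7). Another received 5 fractions of 7 Gy and was taken at day 7 (fractionated, day 7) or at day 14 (fractionated, day 14), and the control received 5 sham fractions of 0 Gy and was taken at day 7 (control, day 7). Each group was 1 library made from 5 pooled rats, so no group has a replicate, day 14 has no control of its own, and no p-value is given. Cells of 1 library are not replicates of a treatment, and the intervals below are exact 95% intervals for counting error alone.

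These cytokines pass alarm signals between damaged epithelium, stroma and leukocytes. IL-1 agonists and TNF act through NF-kB, IL-1 receptor antagonist occupies the IL-1 receptor without signalling, and IL-33 is a nuclear protein released from injured cells that signals through the receptor chain ST2, encoded by Il1rl1. IL-6, IL-11, OSM and LIF share the receptor chain gp130, encoded by Il6st, and signal through JAK kinases and STAT3. IL-24 also signals through STAT3, in epithelium, by receptors that contain the IL-20 receptor beta chain. In squamous epithelium and its stroma these genes are known as markers of injury, and most of them are transcribed within a short time of a stimulus.

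Promoter sequence is shown for 4 members, 1 for each kind of cell in which the libraries differed: Il1b in myeloid cells, Il6 in stromal and vascular cells, Il11 in fibroblasts and Il24 in basal epithelium. The 250 bases before each RefSeq start on the GRCr8 assembly are written 5′ to 3′ on the gene's strand. Capitals mark matches to AP-1 (TGANTCA), STAT (TTCNNNGAA), the NF-kB site or the TATA box (TATAAA). Both strands were searched, and the C/EBP motif TTNNGNAA was searched as well but is left in lower case.
Il1b, chr3:137036582-137036831, minus strand: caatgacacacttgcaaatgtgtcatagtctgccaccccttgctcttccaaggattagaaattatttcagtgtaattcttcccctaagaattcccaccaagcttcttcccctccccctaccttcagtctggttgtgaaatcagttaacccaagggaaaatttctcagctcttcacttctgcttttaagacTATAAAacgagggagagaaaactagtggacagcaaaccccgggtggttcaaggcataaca
Il6, chr4:5894576-5894825, minus strand: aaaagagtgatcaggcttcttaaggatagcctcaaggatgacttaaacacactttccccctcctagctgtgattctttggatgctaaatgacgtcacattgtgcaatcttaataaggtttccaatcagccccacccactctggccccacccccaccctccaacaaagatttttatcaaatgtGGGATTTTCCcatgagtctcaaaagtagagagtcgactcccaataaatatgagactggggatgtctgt
Il11, chr1:78098372-78098621, plus strand: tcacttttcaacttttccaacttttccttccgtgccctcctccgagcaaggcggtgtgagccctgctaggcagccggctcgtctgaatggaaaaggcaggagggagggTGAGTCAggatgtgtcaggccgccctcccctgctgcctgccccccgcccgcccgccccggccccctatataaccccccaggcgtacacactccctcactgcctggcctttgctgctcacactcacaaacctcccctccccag
Il24, chr13:44910761-44911010, minus strand: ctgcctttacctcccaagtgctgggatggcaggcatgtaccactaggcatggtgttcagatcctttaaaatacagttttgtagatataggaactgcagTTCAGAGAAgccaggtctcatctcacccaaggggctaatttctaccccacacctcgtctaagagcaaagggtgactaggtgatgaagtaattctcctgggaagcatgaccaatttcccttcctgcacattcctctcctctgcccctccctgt
The Il1b window held a TATA box that begins 60 bases before the start. The Il6 window held an NF-kB match that begins 68 bases before the start, the Il11 window an AP-1 match at 142 bases, and the Il24 window a STAT match at 152 bases. None of these matches overlapped another of the motifs searched. Among 33469 RefSeq promoter windows of 300 bases, AP-1 was matched in 7.33%, STAT in 8.87%, NF-kB in 7.51%, the TATA box in 14.2% and C/EBP in 41.3%. Of the other members, Il1a held an AP-1 match 12 bases before its start, and Il33 has 2 RefSeq windows. The matches describe these letters and show no bound factor. Lif and Osm are named only.

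After filtering there were 9440 single-dose day-7, 8878 fractionated day-7, 9659 fractionated day-14 and 11357 control cells, with a median of 5861, 5058, 5865 and 6271 UMIs per cell in that order of libraries. Cells were sorted into 10 classes by marker genes that hold no member, and each class carried at least 7 of its markers at 2-fold or more over the other cells. The classes are rebuilt from markers and are called epithelial-like and so on in this sense, shortened below to epithelial, macrophage/monocyte and the like. The class sizes differed widely between libraries. Macrophage/monocyte cells numbered 2350 in the single-dose library, 230 at fractionated day 7, 853 at fractionated day 14 and 165 in the control. Fibroblasts numbered 525, 74, 3237 and 3766 in the same libraries, and 961 neutrophils were found in the single-dose library against 8, 9 and 7 in the others. Neutrophil values are therefore given for the single-dose library alone, and classes under 50 cells are left out. The 2 irradiated day-7 libraries also stood apart in 8 immediate-early genes, among them Fos, Junb and Egr1, which are switched on within minutes of a stimulus. Their summed level over all cells was 1705 CPM (UMIs scaled to a common total of UMIs for each class and library) in the single-dose library and 256 CPM at fractionated day 7. At fractionated day 14 it was 32340 CPM and in the control 29950 CPM. This gap was present in every class compared, and the part of these genes in the results on cytokines was not tested.

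**Figure D1:**
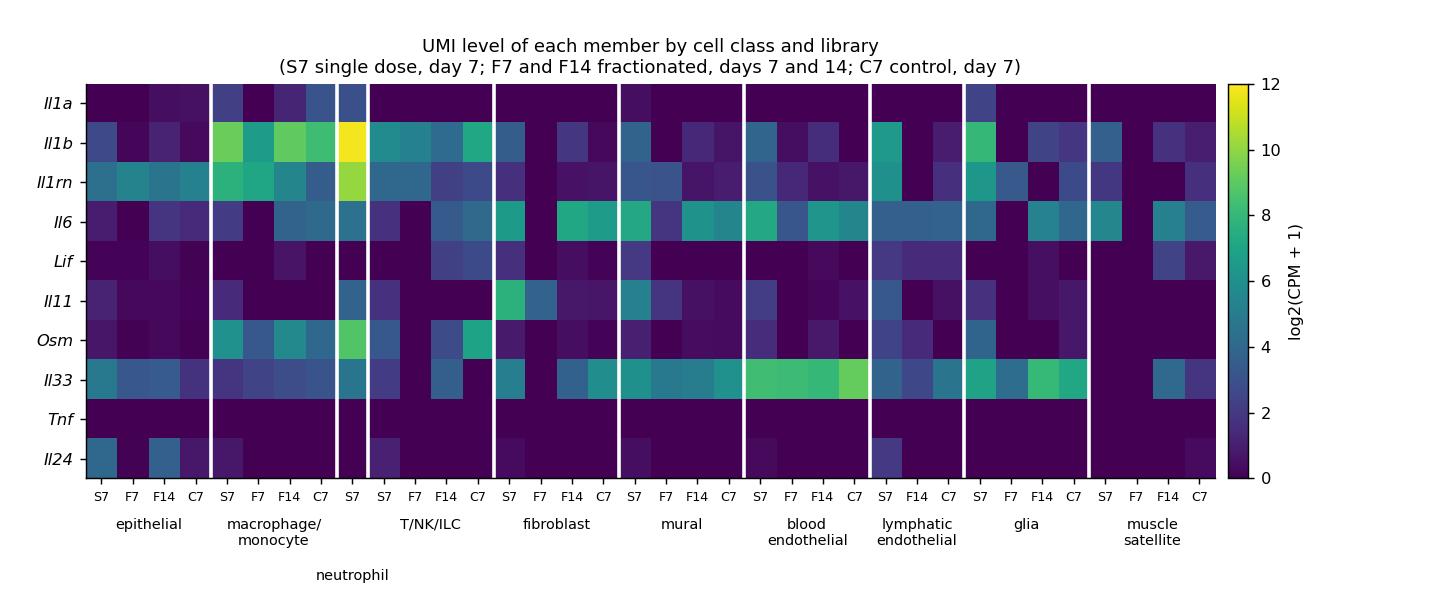
Level of each member as log2(CPM + 1), in colour from 0 to 12, for each class (columns, split by library) with at least 50 cells. Over all libraries the brightest columns are myeloid for Il1b, Il1rn and Osm, and stromal or vascular for Il6 and Il11. They are blood endothelial for Il33 and epithelial for Il24, while the Tnf row is empty. Among the control columns, however, Il1rn is brightest in epithelium and Osm in T/NK/ILC cells, and at day 14 Il33 is brightest in glia.

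Members past a 2-fold ratio to the control were counted where both libraries together gave 20 UMIs or more, and these counts are read beside the share of all genes past the same ratio in the same cells. A member that reached 20 UMIs only through the library where it is high had to differ, so the counts describe the members and support nothing further. In epithelium of the single-dose library 5 of 7 measured members were higher (Il1b, Il11, Osm, Il33 and Il24) and 0 lower, against 9.7% of all genes higher and 10.6% lower. The median log2 ratio of the 7 was 3.76, against 0.16 over all genes. That median is the ratio of Osm, from 44 UMIs against 2. Osm and Il1b both lay at 0.53 times the level that free RNA would give in this epithelium, so the median is not read as a shift in expression. In single-dose macrophages/monocytes 2 of 6 were higher (Il1rn and Osm) and 2 lower (Il6 and Il33), against 15.3% and 17.1% of all genes. Their median of −0.0039 lay beside 0.10 over all genes, so the members as a group did not stand on one side there. In single-dose fibroblasts 3 of 5 were higher (Il1b, Il1rn and Il11) and 0 lower, against 10.8% and 12.5% of genes, and in blood endothelium 3 of 4 were higher (Il1b, Il1rn and Il6) and 0 lower, against 7.97% and 12.7%. The calls at or near the level of free RNA are given under Il1b, Il1rn, Il33, Il11 and Osm.

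At fractionated day 7 fewer members were measured. In epithelium 1 of 4 measured members was higher (Il33) and 2 lower (Il6 and Il24), against 11.7% and 12.3% of all genes. The control level of Il6 there was near that of free RNA, as given under Il6. In macrophages/monocytes 1 of 2 was higher (Il1rn) and 1 lower (Il1b), against 16% and 17.2%, and in blood endothelium 0 of 2 was higher and 1 lower (Il6), against 12.1% and 10.9%. In the 74 fibroblasts 1 of 3 was higher (Il11, on 3 UMIs) and 2 lower (Il6 and Il33, both at 0 UMIs and set to the floor), against 26.1% and 12.3%. At fractionated day 14, 2 of 5 members were higher in epithelium (Il33 and Il24) and 0 lower, against 7.85% and 5.58%. In macrophages/monocytes of that day 2 of 5 were higher (Il1rn and Osm) and 0 lower, against 7.92% and 5.5%. In fibroblasts 1 of 5 was higher (Il1b) and 1 lower (Il33), against 9.72% and 3.8%, and in blood endothelium 1 of 3 was higher (Il1b) and 1 lower (Il33), against 5.64% and 4.84%. All 3 comparisons use the same control library, so a low or high value there enters each of them.

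**Figure D2:**
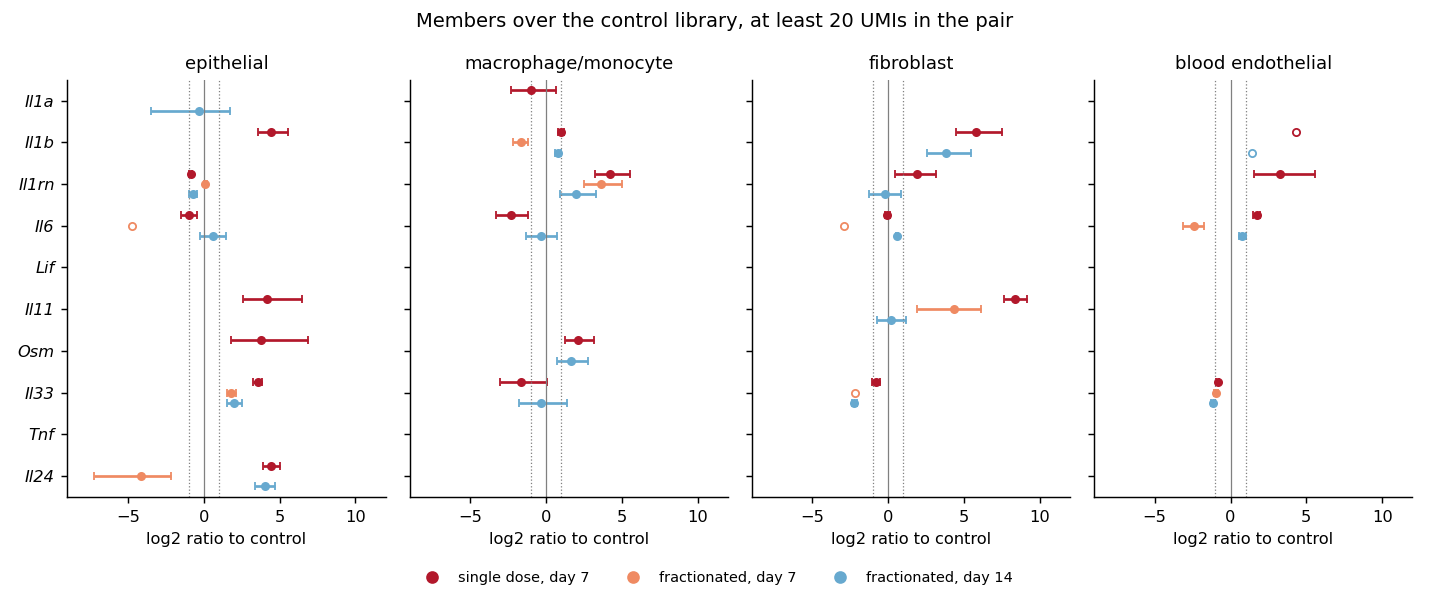
Log2 ratio to the control library of each member with 20 or more UMIs over both libraries, for 4 classes; bars are exact 95% counting intervals, dotted lines mark a 2-fold ratio, and open circles are bounds against a floor of 3 counts. The single-dose points of Il11 in fibroblasts (8.35) and Il24 in epithelium lie far right of the line, and Il6 and Il24 at fractionated day 7 lie left of it.

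Il1b (ENSRNOG00000004649), which encodes the IL-1 beta precursor, had most of its UMIs in macrophages/monocytes and neutrophils in 2 of the 4 libraries. Macrophages/monocytes held 51.7% of its UMIs in the single-dose library, 30.1% at fractionated day 7, 59.7% at fractionated day 14 and 23.8% in the control, and neutrophils a further 29.2%, 2.8%, 6.12% and 6.41%. Cells in no class, or in classes not described here, held the larger share of the rest at fractionated day 7 and in the control. In macrophages/monocytes it had 7516 UMIs in the single-dose library, 43 at fractionated day 7, 1932 at fractionated day 14 and 201 in the control. Relative to all UMIs of the class this was 615, 96.7, 534 and 309 CPM in that order. The single-dose and day-14 levels lay above the control, by 1.99-fold (interval 1.73 to 2.3) and 1.73-fold (1.49 to 2.01), short of the 2-fold line. The fractionated day-7 level was 3.20-fold lower than in the control (2.29 to 4.56) and 6.37-fold lower than in the single-dose library of the same day (4.72 to 8.80). It was 5.53-fold higher at fractionated day 14 than at fractionated day 7 (4.09 to 7.66). The order of the libraries was the same when cells were counted: after thinning every cell to 1000 UMIs, 27.6% of single-dose, 6.06% of fractionated day-7, 19.9% of fractionated day-14 and 16.4% of control macrophages/monocytes held an Il1b UMI. In mural cells, which should lack it, the shares were 1.5%, 0%, 0.373% and 0%, where a count of 0 allows up to 1.15% and 0.510%. Median depths of the macrophages/monocytes before thinning were 4844, 1821, 4067 and 3538 UMIs, and those of the mural cells 5275, 1691, 5287 and 4032.

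The kinds of macrophage differed in this. Resident macrophages, with complement and Cd163 markers, held 278 CPM of Il1b in the single-dose library, 63.2 at fractionated day 7, 425 at fractionated day 14 and 241 in the control. In these cells the single-dose level was 1.16-fold the control (0.970 to 1.39), an interval that includes no difference, and the day-14 level was 1.77-fold higher (1.49 to 2.11). The cells set side by side differ in kind, since the Cd163 cluster held 686 single-dose, 97 fractionated day-7, 8 day-14 and 1 control cells, and the cluster led by Ltc4s and Trem2 held 8, 2, 1021 and 292. Infiltrating monocytes, with Vcan and Plac8 markers, held 770 CPM in 1736 single-dose cells and 239 CPM in 51 fractionated day-7 cells. The other libraries had too few of them for a value. With classes taken from clusters in place of markers, the single-dose ratio of all macrophages/monocytes was 0.43 on the log2 scale, against 0.99 by markers. At fractionated day 14, 36 cells of the monocyte cluster led by Fcnb and Fpr2 held 390 of the Il1b UMIs, or 3330 CPM, against 440 CPM in the 778 cells of the resident cluster led by Ltc4s and Trem2.

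Neutrophils of the single-dose library held 4252 Il1b UMIs in 961 cells, or 3490 CPM (3386 to 3596), above the 615 CPM in the macrophages/monocytes of that library. An Il1b UMI was found in 72.4% of the thinned neutrophils. Their median depth was 1016 UMIs, so 497 of the 961 could be thinned to 1000. The neutrophil level depended on the filter, and was 2209 CPM under a stricter filter that left out cells with under 1000 UMIs.

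In epithelium, blood endothelium and fibroblasts Il1b was low, and part of it lay at the level that free RNA would give. That level was read from 1 source class, the class with the highest CPM of the gene in that library. It rests on how far the markers of the source class appeared in each other class. For single-dose Il1b, Il1rn and Osm the source was neutrophils, although macrophages/monocytes held more of the UMIs. For day-14 Il33 it was glia, although blood endothelium held more. Free RNA from other classes was not counted, so multiples of this level can be too high. In the single-dose library Il1b was at 0.529 times that level in epithelium (5.33 CPM), 1.33 times in blood endothelium (14.2 CPM) and 4.32 times in fibroblasts (10.5 CPM). At day 14 it was at 0.83 times in fibroblasts and 0.35 times in blood endothelium. The higher calls for Il1b in single-dose epithelium, and in single-dose and day-14 fibroblasts and endothelium, are given with these values and are not read as expression by those cells. Other single-dose classes lay further above that level. Lymphatic endothelium held 62 UMIs in the single-dose library and 2 in the control, or 90.4 and 0.881 CPM, at 29.1 times the free RNA level in the single-dose library. Single-dose glia held 257 CPM, at 21.0 times that level. Single cells also set some class values: all 25 Il1b UMIs of control T/NK/ILC cells lay in 1 cell, and 66 of 115 in single-dose glia lay in 1 cell.

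Il1a (ENSRNOG00000004575), which encodes IL-1 alpha, was sparse in every library. It had 107 UMIs in the single-dose library, 0 at fractionated day 7, 10 at fractionated day 14 and 26 in the control. Macrophages/monocytes held 47 single-dose UMIs (3.85 CPM), 0 at fractionated day 7, 5 at fractionated day 14 (1.38 CPM) and 5 control UMIs (7.70 CPM). The single-dose level was 2.0-fold lower than the control with an interval from 0.621-fold to 5.01-fold, so no direction was detectable at this depth. In epithelium, where IL-1 alpha is known to be stored, there was 1 UMI in the single-dose library, 0 at fractionated day 7, 2 at fractionated day 14 and 18 in the control.

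Il1rn (ENSRNOG00000005871), which encodes the IL-1 receptor antagonist, was higher in macrophages/monocytes of all 3 irradiated libraries than in those of the control. The UMIs were 2512 in the single-dose library, 59 at fractionated day 7, 155 at fractionated day 14 and 7 in the control. The levels were 206, 133, 42.9 and 10.8 CPM in that order. The ratios to the control were 19.1-fold (9.25 to 47.5), 12.3-fold (5.62 to 32.0) and 3.98-fold (1.89 to 10.1), and all 3 rest on the 7 control UMIs. Resident macrophages alone gave the same order, with 140 CPM in the single-dose library, 126 at fractionated day 7, 38.5 at fractionated day 14 and 6.5 in the control, from 4 control UMIs. As for Il1b, the day-7 irradiated cells lay in another cluster than those of day 14 and the control. Single-dose neutrophils held 1323 UMIs, or 1086 CPM. The calls for Il1rn in single-dose fibroblasts (8 UMIs) and blood endothelium (29 UMIs) were at 2.92 and 2.04 times the free RNA level. After thinning, an Il1rn UMI was found in 16.2% of single-dose, 11.6% of fractionated day-7, 4.00% of fractionated day-14 and 1.21% of control macrophages/monocytes, against 0.75%, 0.629%, 0% and 0% of the mural cells.

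The number of Il1b UMIs per Il1rn UMI therefore differed between the libraries. In macrophages/monocytes it was 2.99 in the single-dose library (2.86 to 3.13), 0.729 at fractionated day 7 (0.480 to 1.10), 12.5 at fractionated day 14 (10.6 to 14.8) and 28.7 in the control (13.7 to 72.3). The intervals of the 3 irradiated libraries did not overlap one another, and those of fractionated day 14 and the control did. Resident macrophages gave 1.99, 0.50, 11.1 and 37.0, and single-dose neutrophils 3.21. Within the single-dose macrophages/monocytes both transcripts were found in the same cells: 53.6% of the 1216 cells with an Il1b UMI also held an Il1rn UMI, against 43.0% of those without, at median depths of 4777 and 4935 UMIs. A count ratio of transcripts compares the libraries and is no measure of the proteins.

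Epithelium held 92.98% of the Il1rn UMIs in the control and 92.87% at fractionated day 7, against 0.42% and 2.86% in macrophages/monocytes. In the single-dose library epithelium held 22.98% and macrophages/monocytes 42.01%, and at fractionated day 14 37.32% and 44.16%. The single-dose level of epithelium lay below the control. Suprabasal cells, the differentiating layers, held 38.2 CPM in the single-dose library, 58.2 at fractionated day 7, 50.7 at fractionated day 14 and 51.2 in the control. In basal cells the levels were 7.35, 18.5, 14.0 and 18.0 CPM. The basal level in the single-dose library was 2.46-fold lower than the control (2.06 to 2.93), and the fractionated day-7 level was 1.03-fold the control (0.874 to 1.21). The epithelial Il1rn was above the free RNA level, at 6.54 times that from neutrophils in the single-dose library. At fractionated day 7 it was at 775 times that from macrophages/monocytes.

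**Figure D3:**
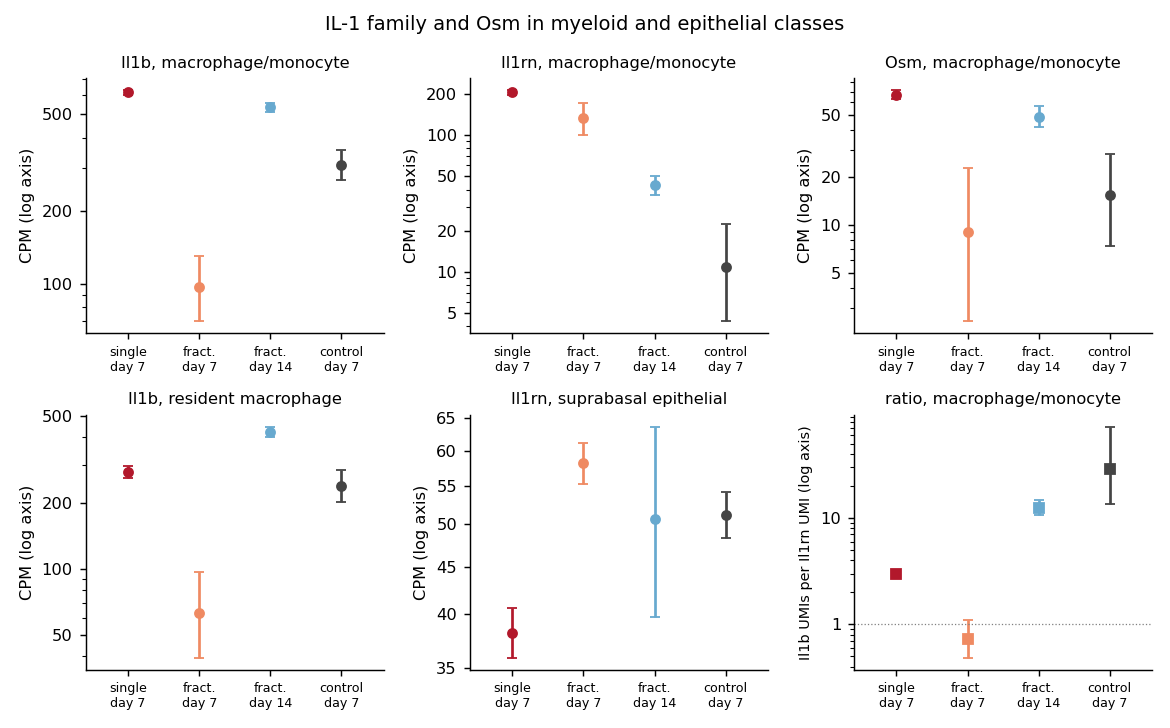
CPM of Il1b, Il1rn and Osm in myeloid and epithelial classes, and Il1b UMIs per Il1rn UMI in macrophages/monocytes (last panel), by library on log axes; points are 1 library each and bars are exact 95% counting intervals. Il1b and Osm of macrophages/monocytes are lowest at fractionated day 7, whereas Il1rn is lowest in the control.

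Il33 (ENSRNOG00000016456) had its highest levels in blood endothelium, and at day 14 in glia as well, and its endothelial level was lower in each irradiated library than in the control. It had 1366 UMIs in single-dose, 785 in fractionated day-7, 3413 in fractionated day-14 and 2414 in control endothelial cells. The levels were 319, 298, 254 and 578 CPM in that order. The ratios to the control were 1.81-fold lower (1.70 to 1.94), 1.94-fold lower (1.79 to 2.10) and 2.27-fold lower (2.16 to 2.40). Endothelial subgroups differed in this. The cluster led by Selp and Sele held 979 of the 1366 single-dose and 597 of the 785 fractionated day-7 UMIs. Its levels were 323 and 340 CPM, and only 12 control cells of any class fell in it. The ratios of both irradiated day-7 libraries to the control therefore compare different endothelial subgroups. In the cluster led by the arterial genes Gja5 and Sema3g the level was 225 CPM in the single-dose library, 283 at fractionated day 7, 169 at fractionated day 14 and 630 in the control. In the cluster led by Apln and Esm1 it was 682 CPM in 30 single-dose cells, 269 CPM in 1254 day-14 cells and 810 CPM in 292 control cells. In another cluster with cells of every library, shallow and with haemoglobin genes among its leading genes, it was 127, 134, 104 and 122 CPM, with no gap between irradiated and control cells. The share of cells with an Il33 UMI, thinned, was 16.5%, 20.6%, 14.1% and 21.4% over all endothelial cells, a narrower range than the levels, against 0.172%, 0%, 0.849% and 0.606% of macrophages/monocytes. Endothelial median depths were 4543, 1898, 4662 and 2098 UMIs.

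In basal epithelium, the layer that holds the stem and progenitor cells, Il33 differed in the opposite direction. There were 1833 UMIs in single-dose, 282 in fractionated day-7, 45 in fractionated day-14 and 43 in control basal cells, or 53.7, 15, 11.3 and 2.82 CPM. The ratios to the control were 19.0-fold (14.1 to 26.4), 5.31-fold (3.84 to 7.50) and 3.99-fold (2.57 to 6.21). This epithelial Il33 was at 33.5 times the free RNA level in the single-dose library, 11.5 times at fractionated day 7 and 12.4 times at fractionated day 14, and in the control it lay at 0.80 times that level. Suprabasal cells held 1.30, 4.18, 6.25 and 2.14 CPM, and the single-dose level was 1.64-fold lower than the control there (1.05 to 2.60). In the single-dose epithelium 197 of 2940 cells held all 1887 UMIs, with up to 122 in 1 cell, and 1823 of them lay in 1 cluster, described with Il24. At fractionated day 7 the 408 UMIs were spread over 269 cells with at most 16 in 1 cell. The ratios of both irradiated day-7 libraries to the control compare cells of different clusters, as given with Il24. Weighting every cell equally lowered the basal single-dose ratio to a log2 value of 3.14.

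Stromal and neural cells held Il33 too. In fibroblasts it was 34.3 CPM in the single-dose library, 12.4 at fractionated day 14 and 58.7 in the control, with 0 UMIs in the 74 fractionated day-7 cells. The day-14 level was 4.73-fold lower than the control (4.26 to 5.26). In the fibroblast cluster shared by these libraries the levels were 18.2 CPM in 47 single-dose cells, 15.5 in 1033 day-14 cells and 54.0 in 2320 control cells. Glia held 121 CPM in the single-dose library, 18.6 at fractionated day 7 (2 UMIs), 264 at fractionated day 14 and 139 in the control, and day 14 was 1.90-fold higher than the control (1.62 to 2.23). The cluster that holds most of these cells was led by the neuronal genes Vip, Cartpt and Stmn2, so they are called glia by their marker gate only. In mural cells the levels were 65.0, 27.4, 33.0 and 67 CPM, and with classes from clusters the fractionated day-7 level was above the control, by 0.16 on the log2 scale. The control mural level was at 0.793 times that of free RNA, so its ratios are not read, and the irradiated ones were at 5.24, 4.33 and 25.3 times. In macrophages/monocytes Il33 was at 0.853 times the free RNA level in the single-dose library and at 0.859 times in the control, so the lower call there is not read either.

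Il6 (ENSRNOG00000010278), an activator of STAT3 and of the acute phase response, came from fibroblasts, blood endothelium and mural cells. In fibroblasts it had 329 UMIs in the single-dose library, 0 at fractionated day 7, 5115 at fractionated day 14 and 2507 in the control. The levels were 91.0, 0, 139 and 94.8 CPM. The single-dose level was 1.04-fold lower than the control (interval 0.928 to 1.17), and the day-14 level was 1.47-fold higher (1.40 to 1.54). The fibroblasts of the libraries lay in different clusters: 446 of the 525 single-dose cells in a cluster with 0 control cells, 1918 of the day-14 cells in a cluster with 30 control fibroblasts, and 2320 of the control cells in a cluster with 47 single-dose and 1033 day-14 fibroblasts. In the last of these Il6 was at 7.27 CPM in the single-dose library (2 UMIs), 148 CPM at day 14 and 98.9 CPM in the control. The value of 0 rests on 74 cells, and against the floor of 3 counts it was at least 7.43-fold lower than the control.

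Vascular cells showed a wider range of Il6. Blood endothelium held 637 UMIs in the single-dose library, 22 at fractionated day 7, 1029 at fractionated day 14 and 187 in the control, or 149, 8.35, 76.6 and 44.7 CPM. The single-dose level of the whole class was 3.32-fold higher than the control (2.82 to 3.93), and the day-14 level 1.71-fold higher (1.46 to 2.01). The fractionated day-7 level was 5.36-fold lower than the control (3.44 to 8.75) and 17.8-fold lower than the single-dose level (11.7 to 28.6). Mural cells repeated this order, with 149 CPM in the single-dose library, 2.49 at fractionated day 7 (2 UMIs), 71.5 at fractionated day 14 and 43.9 in the control. In the mural cells the single-dose ratio to the control was 3.40-fold (2.81 to 4.13). The endothelial level was 46.0 times the free RNA level in the single-dose library, 39.9 times at day 14 and 14.9 times in the control.

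Within the single-dose endothelium Il6 lay in 1 subgroup. The cluster led by Csf3 and by Selp and Sele, the adhesion molecules of activated endothelium, held 609 of the 637 UMIs in 441 of 726 cells, or 201 CPM, whereas the arterial cluster held 30.03 CPM. Only 12 control cells fell in that cluster, so the single-dose ratio compares different endothelial subgroups. Of 3 clusters with cells of both libraries, the single-dose level was higher in 1 and lower in 2, on few UMIs. The arterial cluster held 30.03 CPM in the single-dose library and 20.9 CPM in the control (7 UMIs), the Apln and Esm1 cluster 9.35 CPM (2 UMIs) and 53.2 CPM, and the shallow cluster 5.52 CPM (1 UMI) and 26.2 CPM. At fractionated day 14 the arterial cluster held 111 CPM and the Apln and Esm1 cluster 69.9 CPM. In single-dose mural cells the cluster led by Ccl19 held 286 of 404 UMIs, at 270 CPM. After thinning, 6.43% of single-dose, 0.343% of fractionated day-7, 6.12% of fractionated day-14 and 2.18% of control endothelial cells held an Il6 UMI, against 0.129%, 0%, 1.58% and 1.21% of macrophages/monocytes. In epithelium there were 59 UMIs in the single-dose library, 0 at fractionated day 7, 15 at fractionated day 14 and 70 in the control. The levels were 0.88, 0, 2.65 and 1.7 CPM in that order. The control level was 1.24 times that of free RNA, so the lower call at fractionated day 7 is not read. The day-14 level was 1.56-fold the control, with an interval that includes no difference (0.830 to 2.75). The lower call in single-dose macrophages/monocytes set 3.44 CPM (42 UMIs) against 16.9 CPM in the control (11 UMIs). These levels were at 6.27 and 4.04 times that of free RNA.

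Il11 (ENSRNOG00000017386), a gp130 cytokine made by stromal cells and tied to matrix production, showed the widest ratio of any member to the control. Fibroblasts held 756 UMIs in the single-dose library, 3 at fractionated day 7, 27 at fractionated day 14 and 17 in the control. The levels were 209, 12.8, 0.735 and 0.643 CPM. The single-dose level was 325-fold higher than the control (202 to 562). The fractionated day-14 level was 1.14-fold the control (0.601 to 2.24). The 3 UMIs of fractionated day 7, from 74 cells, gave a level 19.9-fold the control (3.73 to 68.6) and 16.4-fold lower than the single dose (5.59 to 79.7). The doubled margin of the marker gate lowered the single-dose ratio to 7.62 on the log2 scale, against 8.35.

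The Il11 transcript was held by a minority of the single-dose fibroblasts. An Il11 UMI was present in 108 of 525 cells (20.6%), the 53 highest cells held 89.3% of the UMIs, and 1 cell held 80. After thinning, the share was 9.93% in the single-dose library, 3.45% at fractionated day 7, 0.0938% at fractionated day 14 and 0.169% in the control, against 0.172%, 0%, 0% and 0% of macrophages/monocytes. Median depths of the fibroblasts were 5454, 2450, 10193 and 7223 UMIs. Of the 756 UMIs, 750 lay in 446 fibroblasts of 1 cluster, at 236 CPM, led by Aoc1, Cxcl6, Chrdl2 and Ccl11. Single-dose cells made up 96.8% of that cluster, so its cells and its library cannot be told apart. An Il6 UMI was found in 36.1% of the single-dose fibroblasts with an Il11 UMI and in 9.35% of those without, at median depths of 9541 and 4905 UMIs.

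Mural cells of the single-dose library held Il11 as well. There were 97 UMIs in the single-dose library, 2 at fractionated day 7, 3 at fractionated day 14 and 1 in the control, or 35.8, 2.49, 0.450 and 0.297 CPM. The single-dose ratio to the control was 121-fold, with an interval from 21.2 to 4821 that reflects the single control UMI. The Ccl19 cluster held 82 of the 97 UMIs, and 17 cells held all of them. The mural level was 3.79 times that of free RNA, while the single-dose epithelial level of 1.30 CPM was 2.90 times and the macrophage level of 1.72 CPM was 1.43 times it.

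Osm (ENSRNOG00000024390), the gp130 cytokine made by leukocytes that acts on stroma and epithelium, followed the myeloid pattern of Il1b. Macrophages/monocytes held 817 UMIs in the single-dose library, 4 at fractionated day 7, 176 at fractionated day 14 and 10 in the control, or 66.9, 8.99, 48.7 and 15.4 CPM. The ratio to the control was 4.35-fold for the single dose (2.35 to 9.10) and 3.16-fold for fractionated day 14 (1.68 to 6.71). The fractionated day-7 level was 7.44-fold lower than the single-dose level (2.89 to 27.4). Resident macrophages alone held 28.9, 6.02, 50.5 and 16.3 CPM, and their single-dose ratio to the control was 1.78-fold with an interval that includes no difference (0.923 to 3.83), again between cells of different clusters. Single-dose neutrophils held 519 UMIs, or 426 CPM, and an Osm UMI was found in 34.9% of those with an Il1b UMI and in 19.0% of those without, at median depths of 1018 and 1007 UMIs. In the 51 control T/NK/ILC cells there were 22 Osm UMIs in 6 cells, 15 of them in 1 cell, which gave 122 CPM in the control against 9.0 in the single-dose library, 0 at fractionated day 7 and 5.80 at fractionated day 14. The Osm UMIs of single-dose epithelium were at 0.53 times the free RNA level, so the higher call there is not read as expression.

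Lif (ENSRNOG00000007002), which signals through gp130 and the LIF receptor chain, was near the floor. It had 27 UMIs in the single-dose library, 4 at fractionated day 7, 27 at fractionated day 14 and 14 in the control. Fibroblasts held 8, 0, 14 and 2 of them, and single-dose mural cells 8. No class reached 20 UMIs in a pair with the control, so no ratio is given. Tnf (ENSRNOG00000055156) was listed at 0 UMIs in every barcode of the 4 libraries, also in the single-dose macrophages/monocytes and neutrophils. Activated macrophages are known to transcribe this gene, and no level of Tnf is read from the tables.

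**Figure D4:**
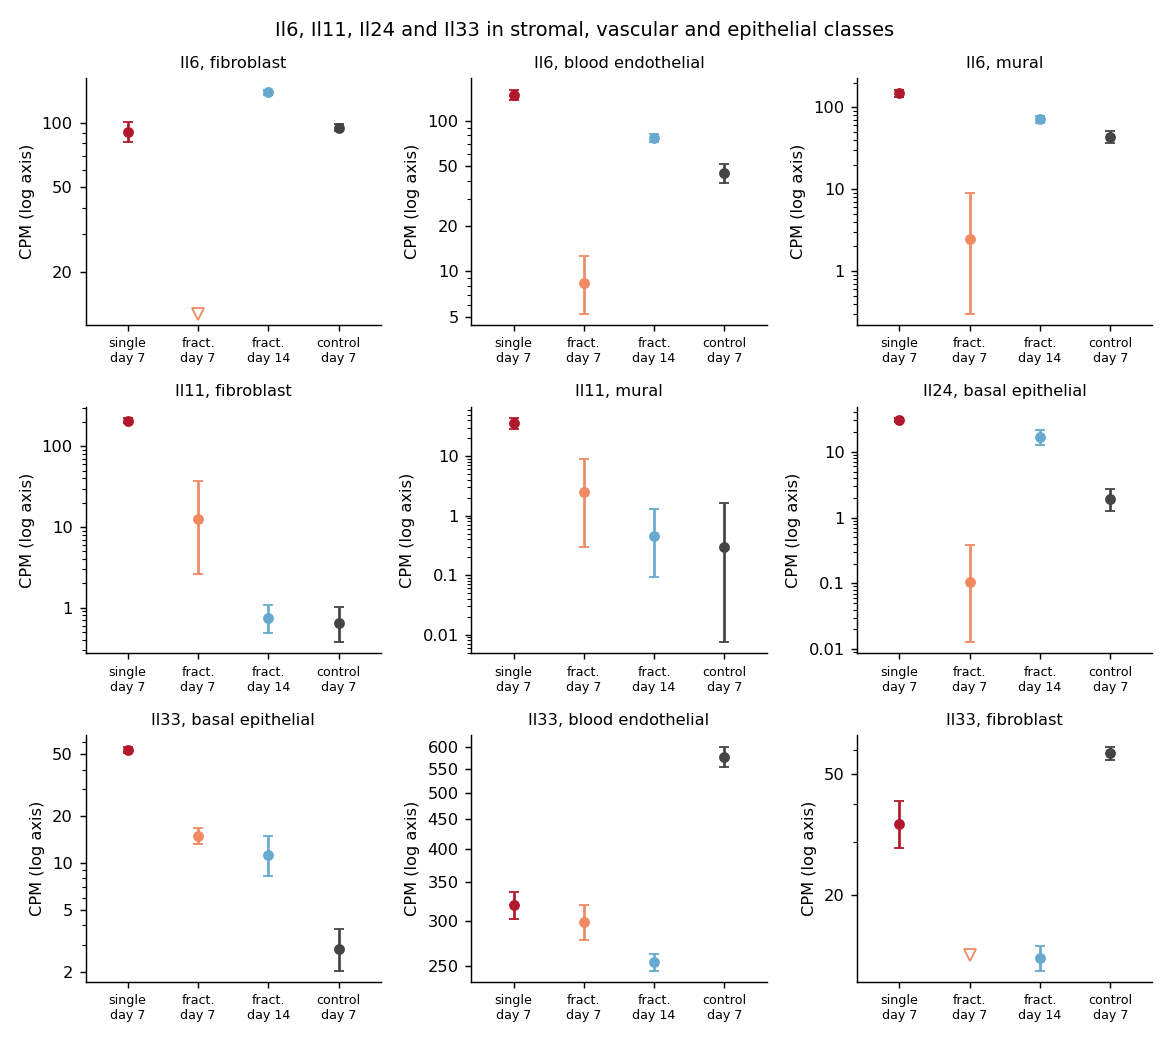
CPM of Il6, Il11, Il24 and Il33 in stromal, vascular and epithelial classes, by library on log axes; points are 1 library each, bars are exact 95% counting intervals, and open triangles stand at the floor of 3 counts where the library had 0 UMIs. Il6 and Il24 are lowest at fractionated day 7, Il11 is highest in the single-dose library, and Il33 is lowest in the control for basal epithelium and highest in the control for endothelium and fibroblasts.

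Il24 (ENSRNOG00000004470), a STAT3-activating cytokine of stressed epithelium, was a transcript of basal cells. They held 1041 UMIs in the single-dose library, 2 at fractionated day 7, 66 at fractionated day 14 and 29 in the control. The levels were 30.5, 0.106, 16.5 and 1.90 CPM. The single-dose level was 16.0-fold higher than the control (11.1 to 24.0), and the fractionated day-14 level was 8.68-fold higher (5.53 to 13.9). The fractionated day-7 level was 17.9-fold lower than the control (4.53 to 155) and 287-fold lower than the single-dose level (79.3 to 2374). Both irradiated day-7 libraries had low immediate-early genes in epithelium, at 1352 CPM in the single-dose library and 241 CPM at fractionated day 7. The day-14 and control values were 16430 and 16540 CPM. Suprabasal cells held at most 0.694 CPM of Il24 in any library.

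Few cells carried Il24. In the single-dose epithelium 89 of 2940 cells held 1049 UMIs, with up to 208 in 1 cell, against 24 of 384 cells at fractionated day 14 and 18 of 2333 in the control. In the fractionated day-7 epithelium it was 1 of 5910 cells. The share of basal cells with a UMI was 4.51%, 0.0309%, 8.49% and 1.52% before thinning, and 0.670%, 0%, 1.11% and 0.358% after it. The 0 of 3159 thinned fractionated day-7 cells allows a share of up to 0.117%, and the intervals of the single-dose and control libraries overlap. The share in macrophages/monocytes after thinning was 0.172%, 0%, 0% and 0%. Median depths of the basal cells were 16082, 5318, 13969 and 12766 UMIs. The levels thus rest on a small number of cells with many transcripts, and weighting every cell equally gave a log2 ratio of 2.66 in place of 4.00.

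The single-dose Il24 lay in 1 epithelial cluster, made without the members and led by Il24, Krt20, Car2 and Top2a. That cluster held 948 single-dose cells with 1017 UMIs, or 34.0 CPM, and 788 fractionated day-7 cells with 2 UMIs, or 0.319 CPM. Cells of the same cluster therefore differed between the schedules at day 7. Only 22 day-14 and 21 control cells of any class fell in it, so the single-dose ratios of Il24 and Il33 to the control compare cells of different clusters. The same cluster held 60.9 CPM of Il33 in the single-dose cells and 11.7 CPM in the fractionated day-7 cells. At day 14 Il24 lay mainly in 2 other clusters. The cluster led by Calcb and Bdnf held 52 of the 67 UMIs, with 17.8 CPM in 215 day-14 cells and 2.10 CPM in 902 control cells. A cluster led by the cell cycle genes Anln and Bub1b held 14 more. It had 14.0 CPM in 49 day-14 cells and 0.909 CPM in 328 control cells. These 2 clusters held 0 and 1 fractionated day-7 cells. Of the fractionated day-7 epithelial cells, 2782 lay in a cluster with 5 control cells of any class and 1744 in one with 14. The fractionated day-7 ratios of Il24 and Il33 to the control thus compare cells of different clusters too. In the single-dose epithelium 66.3% of the 89 cells with an Il24 UMI also held an Il33 UMI, against 4.84% of those without, at median depths of 41483 and 18879 UMIs.

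The genes whose levels were most like each member were ranked over 30 units of class and library, among 13059 genes, by Pearson's r of log2(CPM + 10). The units share libraries and the correlations are a description. Il1b was most like Trem1 (0.94), Nlrp3 (0.94) and Fcgr2a (0.93), and Osm most like Trem1 (0.96), Trem3 (0.96) and Clec4d (0.95), all of them genes of myeloid cells. Il1rn was most like Pla2g7 (0.91), Oscar (0.87) and Trem3 (0.87), and Il1a most like Ccl3 (0.82), Nlrp3 (0.81) and Clec4e (0.81). Il11 was most like the chemokine genes Cxcl6 (0.95) and Ccl11 (0.94) and then Coch (0.92). Il6 was most like Inhba (0.86), Igfbp4 (0.84) and Plpp3 (0.82), Il33 most like Bace2 (0.89), Lims2 (0.88) and Pdzd2 (0.86), and Il24 most like Nppb (0.91).

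The other 65 genes of these pathways were listed by role, and the receptor chains differed mainly in fibroblasts. There 9 of 13 measured receptor chains were higher in the single-dose library and 0 lower, against 10.8% and 12.5% of all genes. Their median log2 ratio was 1.51 against 0.05 over all genes. As given under Il6, 446 of the 525 single-dose fibroblasts lay in a cluster with 0 control cells. Of the day-14 ones 1918 lay in a cluster with 30 control fibroblasts. The fibroblast ratios therefore compare cells that lay mainly in different clusters. Osmr, the OSM receptor chain, held 133 CPM in the single-dose library and 10.4 CPM in the control. Il6st, the shared chain gp130, held 78.3 and 17.8 CPM in the same libraries, Il1r1, the IL-1 receptor, 45.4 and 3.86 CPM, and Il1rl1, the IL-33 receptor, 7.19 and 0.643 CPM. Il11ra1, the chain that binds IL-11, did not pass the 2-fold line in these cells, with 90.4 CPM in single-dose and 146 CPM in control fibroblasts. Jak2, a kinase that couples gp130 to STAT3, held 326 CPM in the single-dose and 25.9 CPM in the control fibroblasts. At fractionated day 7, 6 of 10 were higher in the 74 fibroblasts and 0 lower, where 26.1% of all genes were higher and 12.3% lower. At fractionated day 14, 5 of 13 receptor chains were higher in fibroblasts and 0 lower, against 9.72% and 3.8% of all genes, with a median of 0.93 against 0.09. Il1r2, the decoy receptor that binds IL-1 without signalling, held 122 CPM in day-14 fibroblasts and 19.96 CPM in control ones, and Il1r1 held 10.2 and 3.86 CPM. In epithelium 0 of 14 receptor chains were higher and 2 lower in the single-dose library, against 9.7% and 10.6% of all genes. Their median was −0.03 against 0.16, and Osmr held 8.98 CPM against 18.8 CPM in the control. At fractionated day 7, 1 of 14 was higher and 4 lower in epithelium, against 11.7% and 12.3% of all genes. In single-dose macrophages/monocytes 2 of 8 were higher and 2 lower, against 15.3% and 17.1%.

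Some of the 9 listed feedback inhibitors of NF-kB and STAT3 were lower in both irradiated day-7 libraries. In the single-dose library 6 of 9 measured were lower in epithelium (10.6% of all genes), 5 of 8 in macrophages/monocytes (17.1%), 4 of 9 in fibroblasts (12.5%) and 5 of 9 in blood endothelium (12.7%). In the single-dose library 1 was higher, in fibroblasts, where 10.8% of all genes were higher. The median log2 ratio of the inhibitors in these fibroblasts was −0.62 against 0.05 over all genes. At fractionated day 7 the lower ones were 5 of 9 in epithelium (12.3% of all genes) and 5 of 6 in macrophages/monocytes (17.2%). They were 4 of 8 in the 74 fibroblasts (12.3%) and 5 of 9 in endothelium (10.9%). In that library 1 was higher, in fibroblasts, where 26.1% of all genes were higher. The median log2 ratio at fractionated day 7 was −3.35 in epithelium, −3.63 in macrophages/monocytes, −1.14 in fibroblasts and −2.92 in endothelium, against 0.05, 0.06, 0.26 and 0.09 over all genes. Nfkbia, which holds NF-kB in the cytoplasm, had 121 CPM in single-dose, 33.4 CPM in fractionated day-7 and 1628 CPM in control epithelium. Socs3, the inhibitor of gp130 signalling, had 4.07, 0.167 and 23.1 CPM in the same cells, and Tnfaip3, a deubiquitinase that ends NF-kB signalling, 0.179, 0.188 and 10.7 CPM. These 3 genes are also induced early after a stimulus, and Zfp36, which destabilises cytokine transcripts, is 1 of the 8 immediate-early genes and of this list.

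At fractionated day 14 few feedback inhibitors passed the 2-fold line. Of these genes 1 of 8 was higher and 1 lower in epithelium (7.85% and 5.58% of all genes), 0 higher and 1 of 8 lower in macrophages/monocytes (7.92% and 5.5%), and 0 of 9 passed the 2-fold line in fibroblasts (9.72% and 3.8%) or endothelium (5.64% and 4.84%). Socs3 was the gene higher in epithelium, at 52.9 CPM in day-14 and 23.1 CPM in control cells. Other ligands also passed the line at day 14. Il36g, an IL-1 family agonist of epithelium, held 2.65 CPM in day-14 and 0.267 CPM in control epithelium, whereas Il36b, another agonist, held 1.42 and 8.18 CPM. Il10, the anti-inflammatory cytokine, held 58.3 CPM in day-14 and 12.3 CPM in control macrophages/monocytes. Il1f10, which encodes IL-38, held 40.2 CPM in day-14 and 5.75 CPM in control fibroblasts. In single-dose blood endothelium Ebi3, a subunit of IL-27, held 47 UMIs (10.96 CPM) against 1 UMI in the control.

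**Figure D5:**
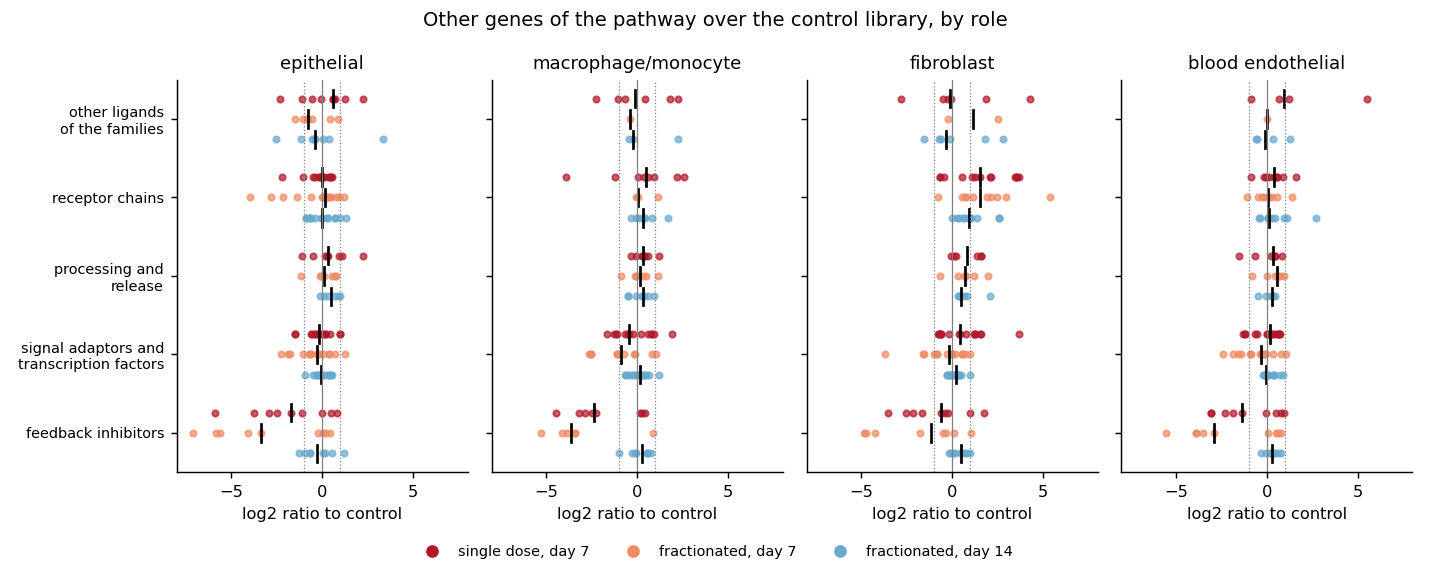
Log2 ratio to the control library of the other pathway genes, by role and class; each point is 1 gene with 20 or more UMIs over both libraries, black ticks are medians, and dotted lines mark a 2-fold ratio. The medians of the feedback inhibitors in both irradiated day-7 libraries lie left of the line in epithelium and macrophages/monocytes, and that of the receptor chains in single-dose fibroblasts lies at 1.51.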

How the data were processed

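Libraries were made with the 10x Chromium 3' chemistry and sequenced on an Illumina instrument, per the labels' protocols, after cold storage, enzyme digestion and removal of dead cells. The authors deposited raw UMI counts per gene and barcode, made with Cell Ranger 5.0.0 per the submitters' processing notes, for 10468 to 12505 barcodes and 59805782 to 109618791 UMIs per library. The 10 members and all gene lists were chosen with earlier results of these data known.

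Cells with at least 200 genes, 500 UMIs and at most 20% mitochondrial UMIs were kept, and Scrublet doublets (2.22% to 4.18%) were left out. Between 21 and 33 cell barcodes were shared by a pair of libraries. Cells were classed from marker scores with a gate margin of 0.25, which left 6.56% to 8.26% of cells in no class. Clusters (Leiden, 34) were made without the members on 2000 variable genes and 30 components with scanpy 1.11.5 and Python 3.11.15. UMIs were summed per class and library as CPM, with exact Poisson intervals, exact conditional binomial intervals for ratios and Clopper-Pearson intervals for shares. A library at 0 UMIs was set to a floor of 3 counts. PCR and droplet losses lie outside these intervals. Ratios were computed for 5 pairs of libraries. Promoters came from RefSeq on GRCr8 and were matched by symbol. The scripts were tested on simulated data. All members are named. Other pathway genes were named by the interval bound of their ratio nearest to 1, up to 4 per class and comparison. The receptor chains Il6st, Il1rl1 and Il11ra1, and Osmr in epithelium, were named after their values were seen, as were the immediate-early genes.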

Additional observations from a re-analysis of the deposited data

How the results depend on the processing

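No paired analysis was possible because each group is 1 library, and for the same reason no library could be left out in turn. Of 84 member ratios past 2-fold, 84 stayed past it with a stricter cell filter (500 genes, 1000 UMIs, 10% mitochondrial UMIs), with doublets kept and with median-of-ratios scaling, 83 with a doubled gate margin, 79 with cluster classes and 77 with every cell weighted equally. Over 4 classes, members higher than the control numbered 13 for the single dose, 3 for fractionated day 7 and 6 for fractionated day 14, and members lower 2, 6 and 2. With at least 100 UMIs in the pair the higher counts at day 7 were 7 for the single dose and 1 for the fractions, and the single-dose lower count 0. With at least 1 UMI fractionated day 7 had 5 higher, and day 14 had 12 higher and 4 lower. With a fold of 4 there were 3 higher and 1 lower at day 14, and 1 lower for the single dose. The single-dose lower count was 4 with the stricter filter or median-of-ratios scaling and 1 with equal weights, and the day-14 lower count was 1 with equal weights. Of the other pathway genes, the 17 higher at fractionated day 7 became 10 with median-of-ratios scaling and 9 with at least 100 UMIs. At day 14 the 18 higher became 9 and the 5 lower became 3 with at least 100 UMIs. The share of all genes past the line was not computed under these changed settings. The counts therefore show only how far they move with the setting, and those of the members include the calls at or near the level of free RNA.

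With cluster classes the single-dose log2 ratio of Il1b in macrophages/monocytes was 0.43, and that of Il33 in mural cells at fractionated day 7 turned to 0.16, against −1.29. With a doubled gate margin Il11 in single-dose fibroblasts was at 7.62. With equal weights the single-dose log2 ratios were 1.47 for Il6 in endothelium, 3.14 for Il33 and 2.66 for Il24 in basal epithelium. The day-14 ratio of Il33 in endothelium, −1.18, was −1.27 with the stricter filter, −1.67 with cluster classes and −0.69 with equal weights, the last within 2-fold. Il1b in single-dose neutrophils, 3490 CPM, was 2209 with the stricter filter, 3248 with doublets kept, 3620 with cluster classes, 3778 with the doubled margin and 4295 with equal weights. Without thinning, and thinned to 2000 UMIs, the shares were 77.0% and 58.5% for Il1b in neutrophils, 20.6% and 13.4% for Il11 in fibroblasts, and 4.51% and 1.35% for Il24 in basal cells. Median-of-ratios scaling moved the median gene by −0.319 to 0.081 on the log2 scale. The causes of these shifts were not tested. Depth limits Il1a, Lif and every value from fractionated day-7 fibroblasts.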
